A study of Rattus norvegicus with 8 samples.

Results

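The polyamine metabolism genes described here were Odc1, Amd1, Srm, Sms, Azin1, Oaz1, Oaz2, Sat1, Smox and Atp13a3. They were found by symbol on the arrays, each through the single-symbol probe set with the highest mean, and all 10 were among the 14511 named genes tested. Expression was measured in perfused rat liver on 8 Affymetrix whole-transcript arrays, one per liver sample. The livers were from male Wistar rats aged 6 to 10 weeks and were perfused with a bicarbonate salt solution, Krebs-Henseleit buffer. In 4 samples the buffer was normoosmotic (305 mosm/L) and in 4 hypoosmotic (225 mosm/L), and all 8 belong to the 180 min time point. A hypoosmotic medium is known to make hepatocytes swell as water enters them. Whether each sample was a different animal is not stated in the labels, so the p-values cover only the variation among these 8 samples, part or all of which may be technical. An isolated perfused liver is cut off from the circulation and its hormones, and unperfused liver was not analysed here.

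Polyamines (putrescine, spermidine and spermine) are small, positively charged molecules that bind RNA and DNA and are needed for growth and for translation. Cells make putrescine from ornithine and build the longer polyamines by adding aminopropyl groups, and they shorten them again by acetylation and oxidation or move them across membranes. Liver has all parts of this cycle together with the urea cycle, whose arginase provides ornithine. Much of the control acts on translation and on the life of the proteins, which arrays of messenger RNA do not read.

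Of the 10 polyamine genes, 3 fell in hypoosmotic livers and 0 rose. The falls were those of Sat1, which acetylates spermidine and spermine, Smox, which oxidises spermine, and Atp13a3, a transporter that moves polyamines out of endosomes. None of the 4 synthesis genes and none of the 3 genes of the antizyme system passed the test. Over all genes 4.62% fell and 2.45% rose, 7.07% in all (limma, Benjamini-Hochberg adjusted p under 0.05 over 14511 genes). Falls made up 65.3% of all calls, and 75.5% with each array centred on its median, where the same 3 polyamine genes fell and 0 rose. The median change of the 10 genes was -0.16 on the log2 scale, against 0.02 (0.015 before rounding) over all genes, and 3 of the 10 changes were above 0. Groups that did not overlap were seen for the same 3 genes, and for 13.5% of all genes (8.21% with the hypoosmotic group lower and 5.33% with it higher). The 10 genes were chosen with earlier results of these data known, so their count is a description and not independent evidence about the pathway.

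**Figure D1:**
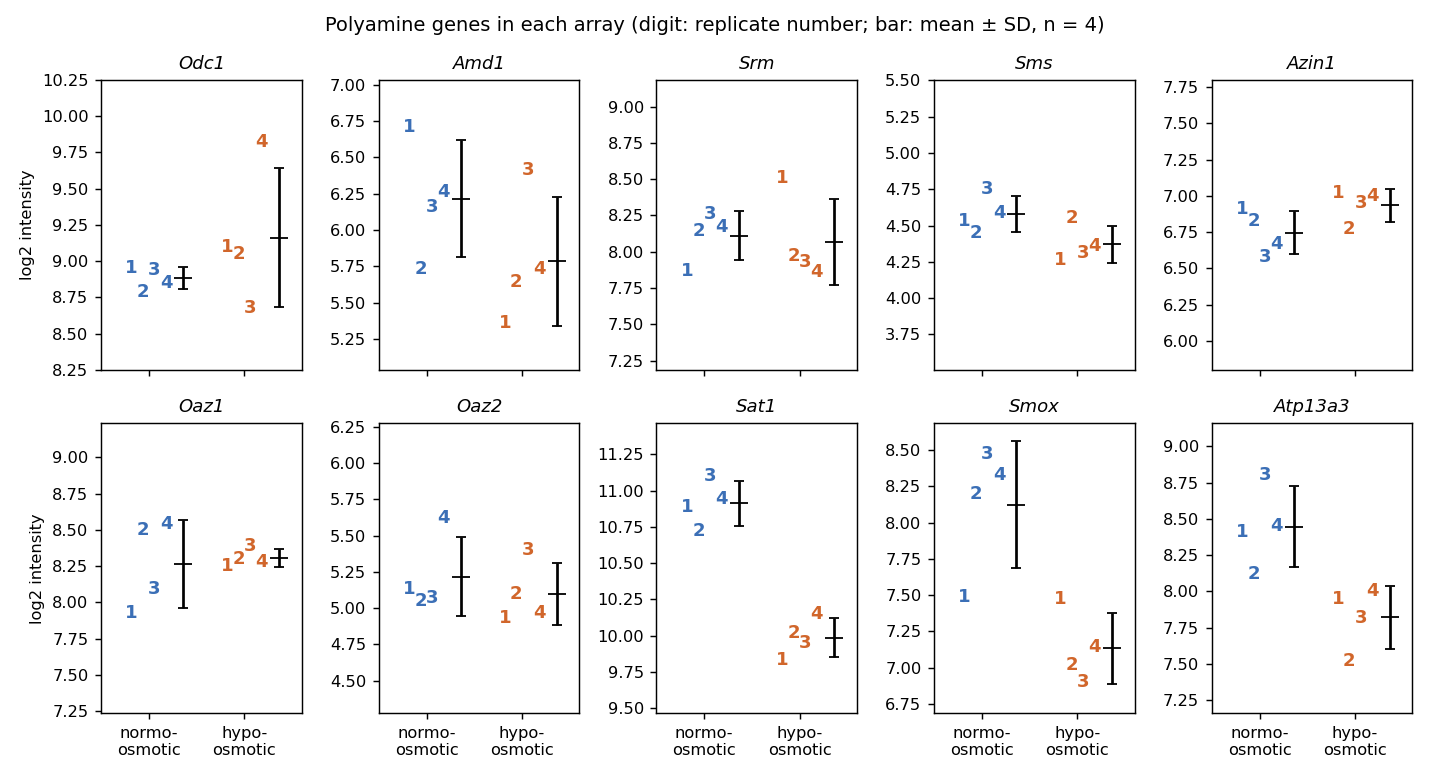
Log2 intensity of each polyamine gene in every array, with 1 panel per gene, axes of equal span, blue digits for normoosmotic and orange digits for hypoosmotic replicates, and black bars for the mean ± SD (n = 4). The groups lie apart for Sat1, Smox and Atp13a3, with Smox replicates 1 almost level at 7.49 and 7.47, and they overlap in the other 7 panels.

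The sequence before the start is shown for Sat1 and Smox, the 2 polyamine genes with the largest falls, which belong to the same branch of the pathway. Both stretches hold 250 bases and come from RefSeq on the build GRCr8. Of the 10 genes 8 had an entry among 33469 promoters, and Atp13a3, which also fell, had none and could not be shown. The Sat1 stretch lies at chrX:44007839-44008088 and the Smox stretch at chr3:139204351-139204600, both on the plus strand and written 5′ to 3′ up to the base before the start. Capitals mark matches on either strand to 6 motifs. These were CACGTG (the E-box), TGANTCA (an AP-1 site), TGACG (a core of the cyclic AMP response element), TGGAAA (a core bound by NFAT factors), GGGCGG (the GC box) and TATAAA (the TATA box), with overlapping matches allowed.
Sat1: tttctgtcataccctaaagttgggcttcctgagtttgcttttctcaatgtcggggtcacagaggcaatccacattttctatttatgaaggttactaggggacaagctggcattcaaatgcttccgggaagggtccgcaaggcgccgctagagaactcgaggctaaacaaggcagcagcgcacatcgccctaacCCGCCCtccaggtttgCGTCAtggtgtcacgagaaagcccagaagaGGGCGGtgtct
Smox: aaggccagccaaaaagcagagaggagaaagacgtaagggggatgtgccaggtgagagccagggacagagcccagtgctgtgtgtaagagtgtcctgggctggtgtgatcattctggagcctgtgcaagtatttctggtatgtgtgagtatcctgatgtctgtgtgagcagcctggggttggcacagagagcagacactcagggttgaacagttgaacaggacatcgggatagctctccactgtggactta
The Sat1 stretch held 2 matches to GGGCGG and 1 to TGACG. The TGACG match lies on the minus strand, from -41 to -37 relative to the start. The Smox stretch held 0 matches to any of the 6 motifs. The start used for Smox lies 19808 bases inside the gene as annotated, so its other starts are not covered. GGGCGG occurred in 30.5% and TGACG in 18.2% of all 250-base stretches, and the other motifs in 5.59% (CACGTG), 6.34% (TGANTCA), 19.7% (TGGAAA) and 12.9% (TATAAA). Sat1 and Smox stretches had a GC content of 52.8% and 53.2%, near the median of 51.2% over all promoters. The genes that did not pass had richer stretches, from 58.0% in Oaz1 to 78.4% in Srm over the 6 with an entry. Among these 6 the starts used for Amd1, Sms and Odc1 also lie inside the gene as annotated, by 58957, 310 and 226 bases. With 2 genes against 6 the difference is a description. A match describes the letters only and was not tested as a binding site.

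Sat1 encodes spermidine/spermine N1-acetyltransferase, the step that marks polyamines for export or breakdown. In normoosmotic livers its log2 intensity was 10.89, 10.72, 11.10 and 10.94 in replicates 1 to 4. In hypoosmotic livers it was 9.83, 10.02, 9.95 and 10.15. Every hypoosmotic value lay below every normoosmotic one, with a gap of 0.57 between the groups. The mean went from 10.91 ± 0.16 (SD, n = 4) to 9.99 ± 0.13 (SD, n = 4), a log2 change of -0.93 (SE 0.11, 95% interval -1.18 to -0.67). On the linear scale 52.7% of the normoosmotic intensity was left (95% interval 44.2% to 62.7%). The adjusted p was 0.00313 (limma), and by its p Sat1 ranked 26 among 14511 genes, while 73 genes had a larger fall. Leaving out any 1 array kept the adjusted p between 0.00503 and 0.0117, and Sat1 also passed against a minimum fold change of 1.2 (adjusted p = 0.0309), as 0.572% of all genes did.

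Smox encodes spermine oxidase, which turns spermine back into spermidine and releases hydrogen peroxide. Its log2 intensity was 7.49, 8.20, 8.47 and 8.33 in the 4 normoosmotic replicates. It was 7.47, 7.02, 6.90 and 7.14 in the 4 hypoosmotic replicates. The groups were separated by only 0.02, because normoosmotic replicate 1 stood below the other 3 normoosmotic arrays and hypoosmotic replicate 1 above the other 3 hypoosmotic arrays. Means were 8.12 ± 0.44 and 7.13 ± 0.25 (SD, n = 4 each), and the log2 change was -0.99 (SE 0.20, 95% interval -1.44 to -0.54). The intensity was 1.99-fold lower in hypoosmotic livers, with an adjusted p of 0.0165 (limma). Without normoosmotic replicate 1 the change was -1.20, and without normoosmotic replicate 3 or 4 the call was lost (adjusted p = 0.0535 and 0.0522). A further probe set annotated to Smox gave 8.03 ± 0.42 and 7.06 ± 0.26, and a log2 change of -0.97 (SE 0.20). It differed from the one used by at most 0.13 in any array, and such closeness may come from shared probes, so it is no separate measurement.

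Atp13a3 encodes a P5B-type ATPase, known in mammalian cells to move polyamines taken up by endocytosis into the cytosol. Normoosmotic replicates 1 to 4 had log2 intensities of 8.41, 8.12, 8.80 and 8.45. Hypoosmotic replicates 1 to 4 had 7.95, 7.52, 7.82 and 8.0. The lowest normoosmotic array, replicate 2, stood 0.12 above the highest hypoosmotic one, replicate 4. Means were 8.45 ± 0.28 and 7.82 ± 0.22 (SD, n = 4 each), with a log2 change of -0.62 (SE 0.16, 95% interval -0.96 to -0.28) and an adjusted p of 0.0365 (limma). This was the weakest of the 3 calls. Of the 8 fits with 1 array removed it held in 2, those without normoosmotic replicate 2 or hypoosmotic replicate 4. It was lost in the other 6 (adjusted p up to 0.0969, without normoosmotic replicate 3), and also after a further quantile normalization (0.0568) and with all probe sets tested together (0.0507). The change itself stayed between -0.73 and -0.50 in the fits without 1 array.

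**Figure D2:**
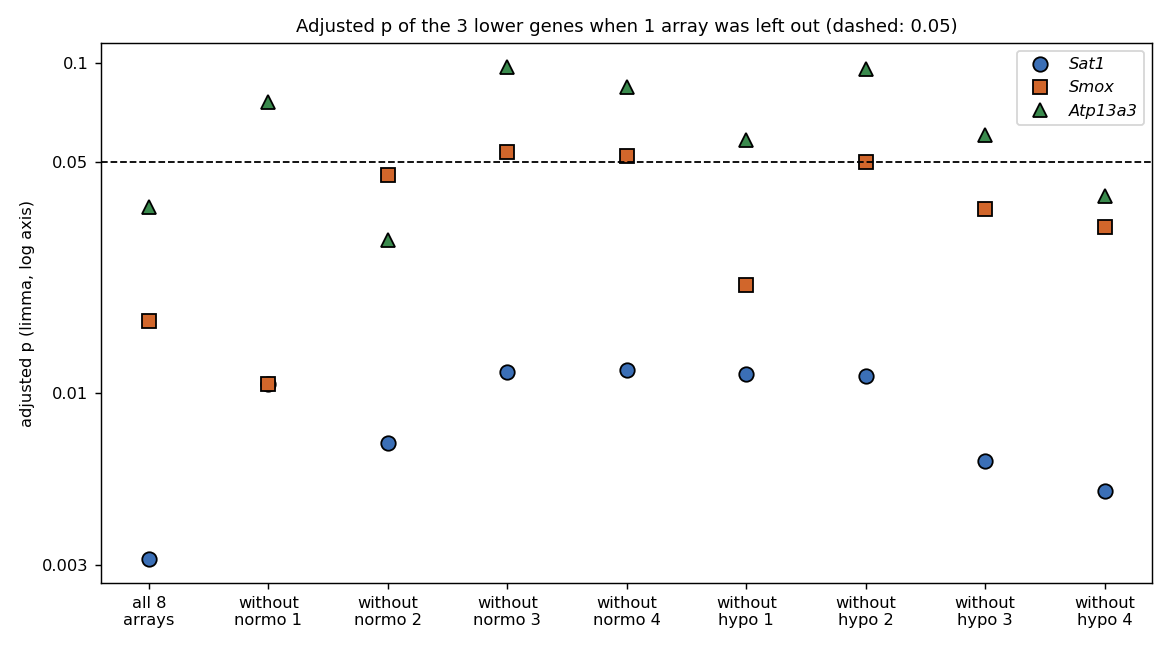
Adjusted p on a log axis for Sat1 (circles), Smox (squares) and Atp13a3 (triangles) with all 8 arrays and without each array in turn, with a dashed line at 0.05. Sat1 stays below 0.0117 throughout, Smox crosses the line without normoosmotic replicate 3 or 4, and Atp13a3 lies below it only with all arrays and without normoosmotic replicate 2 or hypoosmotic replicate 4.

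Normoosmotic replicate 3 held the highest value of all 8 arrays for each of the 3 genes. The arrays with the lowest values differed, being hypoosmotic replicate 1 for Sat1, replicate 3 for Smox and replicate 2 for Atp13a3. To describe likeness, each gene's log2 values were centred on their mean over the 8 arrays and compared by the root mean square difference. Sat1 and Atp13a3 differed by 0.23, Sat1 and Smox by 0.32, and Smox and Atp13a3 by 0.35.

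Other genes lay nearer to each of them than they lay to each other. The nearest to Sat1 were Btg3 (0.08), an antiproliferative protein of the BTG/TOB family, Fxr2 (0.09), an RNA-binding relative of the fragile X protein, and Zfp131 (0.10), a zinc finger protein. The nearest to Smox were Map3k6 (0.20), a kinase of the MAP kinase cascades, Ppan (0.20), a nucleolar protein of ribosome assembly, and Fnbp4 (0.20), a formin-binding protein. The nearest to Atp13a3 were Abl1 (0.08), a tyrosine kinase, Tubb4b (0.11), a beta-tubulin, and Safb (0.11), a scaffold attachment factor. Loci named only by a number (LOC, RGD and AABR symbols) were left out of this search. Over the genes searched, the median differences were 0.52 from Sat1, 0.62 from Smox and 0.42 from Atp13a3. All 9 nearest genes passed the test as falls, which closeness to a gene with a fall favours. Their log2 changes ran from -0.93 in Fxr2 to -0.58 in Abl1 and Safb.

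**Figure D3:**
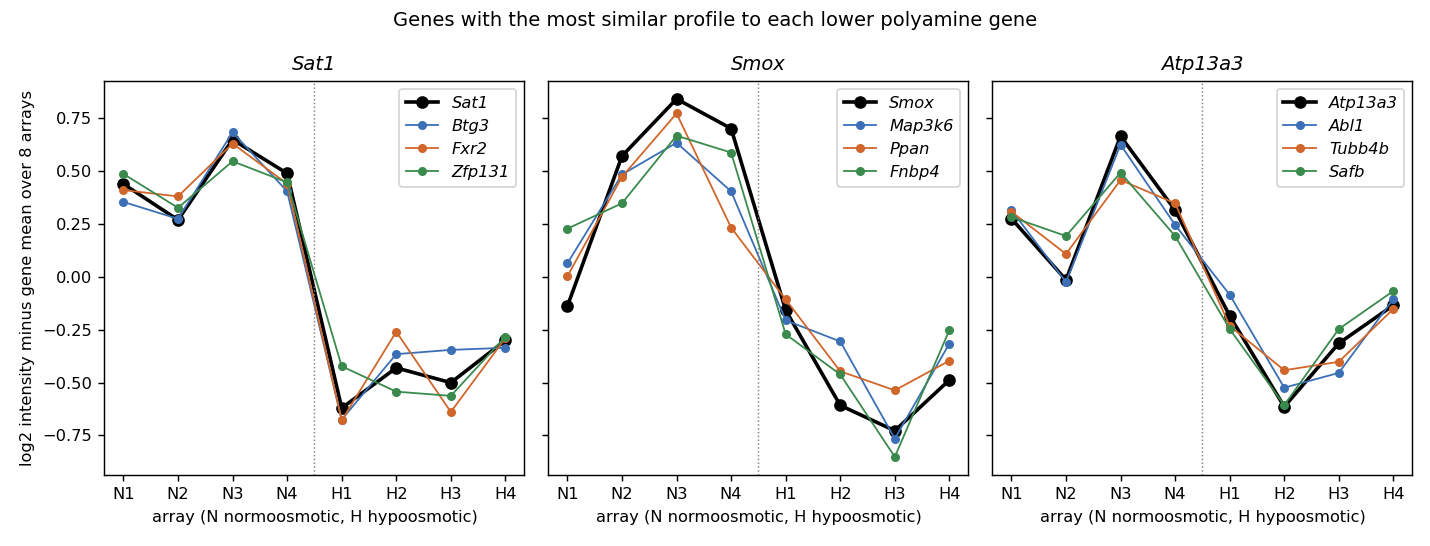
Log2 intensity minus the gene's mean over the 8 arrays, for Sat1, Smox and Atp13a3 (black) and the 3 genes nearest to each, with N1 to N4 for normoosmotic and H1 to H4 for hypoosmotic replicates and lines only to join the points of a gene. The root mean square difference over the arrays is under 0.12 for the genes nearest to Sat1 and Atp13a3 and about 0.20 for those nearest to Smox. Points of a single array can lie further apart, and Smox lies below its nearest genes in N1.

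Ornithine decarboxylase, encoded by Odc1, makes putrescine and is a short-lived, tightly regulated enzyme of the pathway. Normoosmotic arrays were close together at 8.95, 8.79, 8.94 and 8.85. Hypoosmotic arrays were 9.10, 9.05, 8.68 and 9.82, so that replicate 4 was the highest and replicate 3 the lowest of all 8 arrays. The SD was 0.08 in the normoosmotic and 0.48 in the hypoosmotic group. The log2 change was 0.28 (SE 0.20, 95% interval -0.15 to 0.71, adjusted p = 0.499 by limma), and it was 0.06 without hypoosmotic replicate 4 and 0.44 without hypoosmotic replicate 3. The interval on the linear scale runs from 89.9% to 164% of the normoosmotic intensity. With 4 arrays per group, no change could not be told from a rise or a fall within this interval.

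Amd1 encodes S-adenosylmethionine decarboxylase, which supplies the aminopropyl groups. Its log2 intensity was 6.71, 5.73, 6.16 and 6.26 in normoosmotic and 5.36, 5.64, 6.41 and 5.73 in hypoosmotic replicates. Both groups spread over about a log2 unit and overlapped, with hypoosmotic replicate 3 above 3 of the normoosmotic arrays. The change of -0.43 (SE 0.24, 95% interval -0.95 to 0.09) did not pass (adjusted p = 0.351, limma). It ranged from -0.64 to -0.27 (-0.265 before rounding) without 1 array.

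Srm, spermidine synthase, had 7.87, 8.14, 8.26 and 8.17 in normoosmotic and 8.51, 7.97, 7.93 and 7.86 in hypoosmotic replicates. Hypoosmotic replicate 1 was the highest of all arrays and the other 3 hypoosmotic arrays were close together. The change was -0.04 (SE 0.15, 95% interval -0.38 to 0.29, adjusted p = 0.925 by limma). It was -0.19 without hypoosmotic replicate 1, and its sign turned in 4 of the alternatives. A dimmer probe set of Srm had a change of -0.24 (-0.235 before rounding, SE 0.13) and did not pass either (adjusted p = 0.427 over 27596 probe sets, limma).

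Sms, spermine synthase, was measured at 4.53, 4.45, 4.75 and 4.59 in normoosmotic and 4.26, 4.55, 4.31 and 4.36 in hypoosmotic replicates. Only hypoosmotic replicate 2 reached into the normoosmotic range. The change of -0.21 (SE 0.11, 95% interval -0.45 to 0.03) did not pass (adjusted p = 0.314, limma). Its 2 other probe sets had changes of -0.07 (-0.065 before rounding) and -0.19 (-0.185 before rounding), neither of which passed. All group means of the 10 genes lay above 3.07, the 95th percentile of the mean level of 1105 odorant receptor genes, which was taken as near background after the data were seen.

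**Figure D4:**
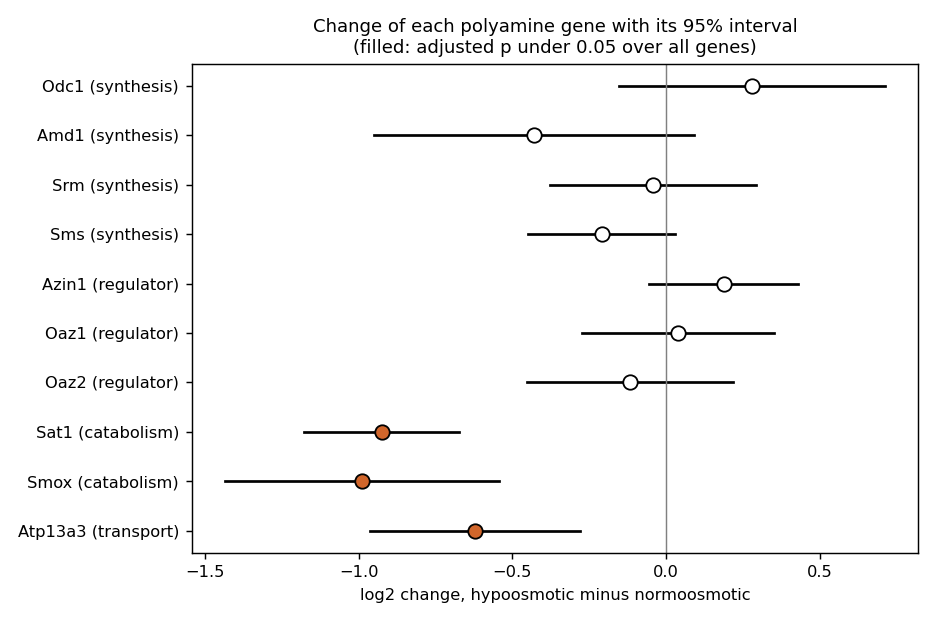
Log2 change (hypoosmotic minus normoosmotic, n = 4 each) of each polyamine gene with its 95% interval, ordered by role, with filled points for adjusted p under 0.05. The intervals of Sat1, Smox and Atp13a3 lie wholly below 0, while those of the 4 synthesis genes and the 3 antizyme system genes include 0.

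Antizymes bind ornithine decarboxylase, send it to the proteasome and restrain polyamine uptake. Their mRNAs are read through a frameshift that polyamines promote. Oaz1, the most widely expressed of them, had 7.93, 8.50, 8.09 and 8.54 in normoosmotic and 8.25, 8.30, 8.39 and 8.28 in hypoosmotic replicates. The normoosmotic arrays fell into 2 lower and 2 higher ones, and all 4 hypoosmotic arrays lay between them, with SDs of 0.30 and 0.06. The change was 0.04 (SE 0.14, 95% interval -0.27 to 0.35, adjusted p = 0.925 by limma). A dimmer probe set of Oaz1 gave 0.23 (0.225 before rounding, SE 0.12, adjusted p = 0.400 over all probe sets).

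Oaz2, a further antizyme, had 5.13, 5.05, 5.07 and 5.62 in normoosmotic and 4.93, 5.10, 5.40 and 4.97 in hypoosmotic replicates. Normoosmotic replicate 4 stood above the rest, and the groups overlapped. The change was -0.12 (SE 0.15, 95% interval -0.45 to 0.22, adjusted p = 0.756 by limma) and turned to 0.02 without that array.

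Azin1, the antizyme inhibitor, resembles ornithine decarboxylase, lacks its activity and frees it from antizyme. It had 6.91, 6.83, 6.58 and 6.67 in normoosmotic and 7.02, 6.77, 6.95 and 7.0 in hypoosmotic replicates. All but hypoosmotic replicate 2 lay above the normoosmotic arrays. The change of 0.19 (SE 0.11, 95% interval -0.06 to 0.43) did not pass (adjusted p = 0.391, limma). Its interval bounds a rise at 135% of the normoosmotic intensity.

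Around these genes, 48 others were listed by their role, and 43 of them were measured. Of the 43, 4 rose and 0 fell, against 2.45% and 4.62% of all genes. 3 lists had 0 calls in either direction. Among 6 further polyamine enzymes and regulators the list median was 0.18, and 3 had an unadjusted p under 0.05 (limma). Agmat, annotated as agmatinase, went from 7.33 ± 0.06 to 7.66 ± 0.13 (SD, n = 4 each) without overlap between the groups, a change of 0.33 (SE 0.10, adjusted p = 0.0770). Azin2, a second antizyme inhibitor, had a change of 0.37 (SE 0.13, adjusted p = 0.134), and passed without hypoosmotic replicate 3 (0.0282) and with array weights (0.0498). Paox, which oxidises the acetylated polyamines that the Sat1 enzyme makes, was named after its value was seen. It had 5.64 ± 0.19 (5.635 before rounding) in normoosmotic and 5.98 ± 0.26 (5.975 before rounding) in hypoosmotic livers (SD, n = 4 each), a change of 0.34 (SE 0.15, adjusted p = 0.213 by limma).

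Of 10 measured genes of polyamine and cationic amino acid transport, 0 passed and 2 had an unadjusted p under 0.05 (limma), with a list median of -0.01. Slc22a3, an organic cation transporter, had a change of 0.32 (0.315 before rounding, SE 0.10, adjusted p = 0.0756), but both group means, 2.51 and 2.82, were below the near-background level of 3.07. Slc7a2, which carries arginine and ornithine into cells, had a change of -0.29 (SE 0.13, adjusted p = 0.216). Atp13a2, a lysosomal relative of Atp13a3, was named after its value was seen and had 0.05 (SE 0.12, 95% interval -0.21 to 0.30). Atp13a4 and Slc18b1 were not analysed here.

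Of 11 genes that supply arginine and ornithine, 3 rose and 0 fell, with a list median of 0.14. Arginase, encoded by Arg1, releases ornithine, the precursor of putrescine. Its log2 intensity was 9.42, 9.50, 9.49 and 8.86 in normoosmotic and 9.87, 10.07, 10.02 and 10.34 in hypoosmotic replicates. All hypoosmotic arrays lay above the normoosmotic ones, with a change of 0.76 (SE 0.16, adjusted p = 0.0183, limma), or 1.69-fold higher. Slc25a15, which exchanges ornithine across the inner mitochondrial membrane, had a change of 0.81 (SE 0.18, adjusted p = 0.0233). Nags, whose product activates the entry step of the urea cycle, had 1.32 (SE 0.34, adjusted p = 0.0403, limma). Its normoosmotic arrays were widely spread, at 7.89, 7.70, 6.01 and 6.76, against 8.20 to 8.60 in the hypoosmotic ones. The change of Nags was 0.96 without normoosmotic replicate 3. Without 1 array, Slc25a15 passed in 5 and Nags in 2 of 8 fits. Oat, which breaks ornithine down, had a change of 0.24 (SE 0.23, 95% interval -0.27 to 0.74) and was named after its value was seen.

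Of 13 measured genes of the methionine cycle and methionine salvage, 1 rose and 0 fell, with a list median of 0.16. It was Cbs, cystathionine beta-synthase, which draws homocysteine out of the cycle, with 6.41 ± 0.18 and 7.05 ± 0.24 (7.045 before rounding; SD, n = 4 each) and an adjusted p of 0.0228 (limma). Cbs passed in 3 of the 8 fits without 1 array. Among the 3 measured genes of the hypusine pathway, through which spermidine modifies the translation factor eIF5A, 0 passed and 0 had an unadjusted p under 0.05 (limma). The hydroxylase gene Dohh had a change of -0.24 (SE 0.11, 95% interval -0.48 to 0.00, adjusted p = 0.243). The synthase gene Dhps had -0.16 (SE 0.11, adjusted p = 0.485).

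**Figure D5:**
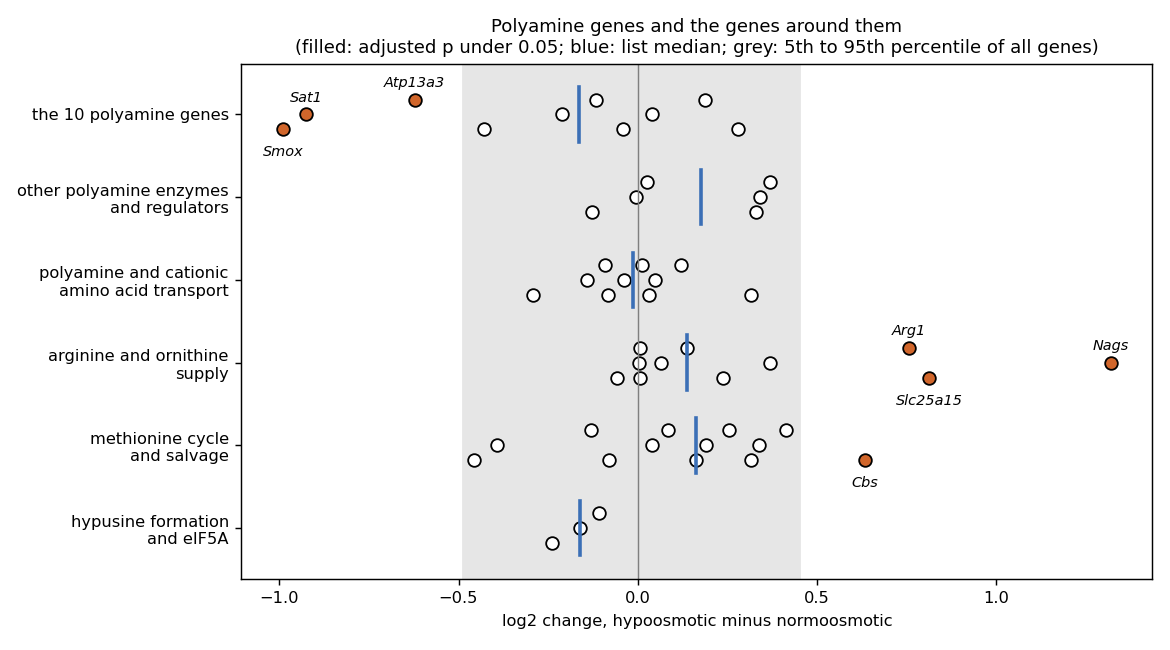
Log2 change (hypoosmotic minus normoosmotic) of each measured gene, by list, with filled points for adjusted p under 0.05, blue marks for list medians and grey for the 5th to 95th percentile over all genes (-0.49 to 0.45). Sat1, Smox and Atp13a3 lie left of the grey range and Arg1, Slc25a15, Nags and Cbs right of it, while all other points lie inside it.

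The arrays read whole liver, in which fewer cells of a type and less RNA per cell cannot be told apart. All 8 hepatocyte markers were measured, 0 passed (0 with an unadjusted p under 0.05, limma), and their mean level was 12.19 to 12.26 in normoosmotic and 12.15 to 12.20 in hypoosmotic arrays. Of 10 Kupffer cell markers 0 passed (0 with an unadjusted p under 0.05), 6 changes were above 0, and their mean level was 6.08 to 6.58 and 6.13 to 6.95. Of 10 stellate cell markers 0 passed, at mean levels of 5.81 to 5.90 and 5.66 to 6.28, but 8 changes were above 0, 2 had an unadjusted p under 0.05 and the list median was 0.21. Of 7 sinusoidal endothelial markers 1 rose and 1 fell (6.76 to 7.02 and 6.91 to 7.36), these being Kdr, a growth factor receptor, with 0.66 (SE 0.15) and Oit3 with -0.46 (SE 0.11). The other markers of this list had changes above 0, so that 6 of the 7 were positive, with a median of 0.33, and 4 of the 7 had an unadjusted p under 0.05. Of 5 cholangiocyte and 8 blood cell markers 0 passed, at 4.04 to 4.15 and 4.08 to 4.16 for the former and 2.90 to 3.41 (2.895 before rounding) and 3.04 to 3.25 for the latter. Their part in the falls of Sat1, Smox and Atp13a3 was not tested. Hypoosmotic replicate 3 stood apart from the other arrays on the second principal component of all genes (28.5, against -15.3 to 6.60, with 18.9% of the variance). Without it Sat1 (adjusted p = 0.00622) and Smox (0.0359) passed and Atp13a3 did not (0.0606), with log2 changes of -0.91, -0.91 and -0.62.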

How the data were processed

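RNA of 4 normoosmotic and 4 hypoosmotic liver samples was hybridised to 1 array each, with groups and replicate numbers read from the sample titles. The authors deposited log2 values for 27596 probe sets. RMA, Transcriptome Analysis Console 4.0 and Affymetrix Expression Console are named, without roles, per the submitters' processing notes. RMA is known to equalise array distributions, which removes a change common to most genes, and the 8 medians lay between 3.92 and 4.05. Scanner files were not used here.

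The platform annotation of 2016 gave 1 symbol to 15316 probe sets, several to 317 and none used here to 11963. For the 528 genes with several probe sets the one with the highest mean was kept, which left 14511 genes. limma 3.58.1 in R 4.3.3 (lmFit, eBayes, group as the only term) was fitted on all of them, with p-values from both tails adjusted by Benjamini-Hochberg and a threshold of 0.05. Changes are hypoosmotic minus normoosmotic means on the log2 scale, with 95% intervals from the same fit. The number of arrays limits the precision.

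The genes, lists, motifs and naming rule were chosen with earlier results of these data known. Of each related list, the genes that passed were named, or otherwise the 2 with the smallest p, and for each polyamine gene that passed, the 3 genes with the nearest profile. The search for nearest profiles skipped loci named only by a number. Exceptions are stated where they occur. A gene of the transport list is not reported here. The fit was tested on simulated data. Python 3.11.15, pandas 2.3.3 and matplotlib 3.10.9 searched promoters and drew plots. Alternatives were a replicate block, robust variances with an intensity trend, array weights, quantile normalization, median centring, removal of the 30% dimmest genes, averaged probe sets, a test of all probe sets, limma treat at 1.2-fold and removal of each array in turn.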

Additional observations from a re-analysis of the deposited data

Results flagged for a closer look

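In 58 groups of 4 arrays, covering the polyamine genes, the named related genes and the nearest genes, 4 had an array far from the other 3, and chance gives about 1 in 20. Srm in hypoosmotic replicate 1 was 8.51, while the other 3 hypoosmotic arrays lay between 7.86 and 7.97. Oaz2 in normoosmotic replicate 4 was 5.62, while the others lay between 5.05 and 5.13. Arg1 in normoosmotic replicate 4 was 8.86 against 9.42 to 9.50 in the others, and its change was 0.61 (0.605 before rounding) without that array, where it still passed (adjusted p = 0.0341, limma). Btg3, the gene nearest to Sat1, was 5.75 in hypoosmotic replicate 1 against 6.06 to 6.09 in the others.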

How the results depend on the processing

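The 0 polyamine genes that rose stayed 0 under every alternative run. The 3 that fell were 1 to 3 in the fits without 1 array, where only Sat1 was left without normoosmotic replicate 3 or 4, and 1 against a minimum fold change of 1.2. The 4 related genes that rose were 1 to 4 without 1 array and 0 against a minimum fold change of 1.2. Of the related genes 1 fell, in place of 0, with the replicate block, with the 30% dimmest genes removed and with arrays centred on their medians. These fits gave the count and not the name of that gene. In the fit as reported, Mtr, methionine synthase, had the smallest p among related genes with a negative change. Its change was -0.46 (adjusted p = 0.0571, limma), and it was named after its value was seen. With the replicate number as a block, 3 polyamine genes fell, 0 rose and 4 related genes rose, Sat1, Smox and Atp13a3 had adjusted p of 0.00829, 0.0379 and 0.0270, and 1029 genes were called in all, against 1026. The labels do not say that a replicate number marks a shared animal, day or batch. Deviations of same-numbered samples had correlations from 0.01 to 0.26. Both arrays of replicates 2, 3 and 4 correlated best with their own number and those of replicate 1 did not. No chance level was computed for such matches, so they do not show whether the samples were paired. The block changed no other call among the polyamine genes and the related genes named by the rule. Smox and Atp13a3 did not pass against a minimum fold change of 1.2 (0.130 and 0.447), nor did Arg1, Nags, Slc25a15 or Cbs (0.202 to 0.313), and Nags did not with an intensity trend (0.0732) or all probe sets together (0.0552). Signs turned for 3 polyamine genes with changes near 0 and for none of the other 7 or of the 10 related genes named by the rule. Srm was 0.0267 with array weights and -0.19 to 0.0267 without 1 array, Oaz1 -0.01 after median centring and -0.0717 to 0.13 without 1 array, and Oaz2 -0.22 to 0.0167 without 1 array. Over all genes 468 to 1051 were called without 1 array. Fewer arrays also mean less power.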
